A study of Homo sapiens with 10 samples.

Results

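The genes described are 48 genes of DNA replication licensing and synthesis, from origin recognition to chromatin assembly behind the fork. They were chosen by symbol, with earlier results of these data known. All 48 have a line in the deposited count table of 58735 lines and passed the filter on low counts, as did 13934 genes in all. The libraries came from HCMECs, human brain endothelial cells recorded as a cell line. In 5 libraries (siUSP9X) the cells had received a small interfering RNA against USP9X, a deubiquitinase that removes ubiquitin from its client proteins, and in the other 5 (siCtrl) a control siRNA. Transfection lasted 48 h in both groups, and all cells then had Wnt3a, a Wnt pathway ligand, for 12 h before total RNA was taken. Both groups thus carry the Wnt3a stimulus, no unstimulated cells were analysed here, and the sequences and number of the siRNAs are not given in the sources used here. The study's title asks how USP9X acts on Wnt signalling in vessels of the central nervous system. The comparison below asks which replication genes differ in mRNA level between siUSP9X and siCtrl cells, complex by complex.

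Chromosomes are copied once per cell cycle because loading of the helicase and its activation are kept apart in time. In G1 the origin recognition complex, CDC6 and CDT1 load rings of MCM2 to MCM7 on DNA, and at the start of S phase CDC45 and the GINS proteins join the ring to form the moving helicase. The polymerases, the sliding clamp PCNA with its loader RFC, the single-strand binder RPA, the flap nuclease FEN1, the ligase LIG1 and the enzymes that make deoxynucleotides then complete the copy. Many of these genes are classic targets of E2F transcription factors, which are restrained by RB proteins until late G1. In the brain, vessel endothelium divides mainly while the vasculature grows and is largely quiescent in the adult, whereas an endothelial line in culture is usually cycling.

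Of the 48 genes, 14 were lower and 1 was higher in siUSP9X cells by the edgeR quasi-likelihood test, with a Benjamini-Hochberg adjusted p over all tested genes under 0.05, and 33 did not pass. Lower genes were 29.2% of the 48, where 3.22% of all tested genes were lower, 4.09% higher and 7.31% either. The median log2 fold change, siUSP9X over siCtrl, was -0.27 over the 48 genes, of which 34 were negative, against 0.03 over all tested genes, of which 47.6% were negative. All 5 siUSP9X libraries lay below all 5 siCtrl libraries for 21 of the 48 genes (43.8%) and above them for 0, against 6.85% and 7.79% of all tested genes. Because the 48 genes were chosen with earlier results of these data known, these shares describe the list and do not test it. The lower genes were the helicase loaders CDC6 and CDT1, the ring subunits MCM3, MCM5 and MCM7, the helicase partners CDC45 and GINS1, the clamp PCNA, the clamp loader subunit RFC5, the polymerase POLD1, the ligase LIG1, the nucleotide enzyme TYMS, the methylation factor UHRF1 and the histone mRNA binder SLBP. The higher gene was CCNE1, which encodes cyclin E1. In bulk RNA, fewer cells in S phase and less of these mRNAs per cell cannot be told apart.

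**Figure D1:**
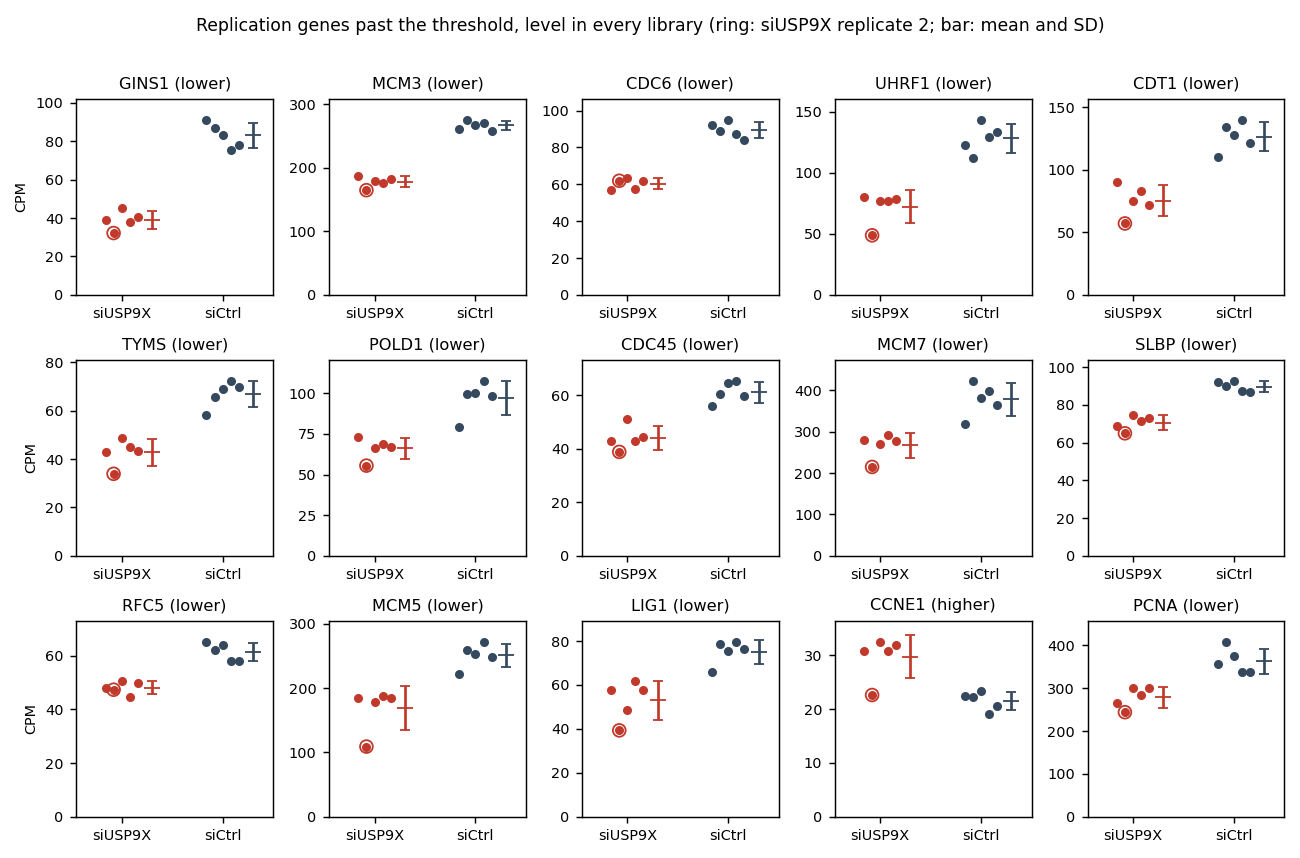
Level in CPM (counts scaled to library size) of the 15 genes past the threshold in each siUSP9X library (left, red) and each siCtrl library (right, blue), ordered by p, with bars for mean and SD and a ring around siUSP9X replicate 2. The 14 lower genes show siUSP9X points under every siCtrl point, and CCNE1 shows siUSP9X points above siCtrl except replicate 2 at 22.6 CPM.

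Library totals were 15958362 to 20442278 counts in siUSP9X and 17716250 to 26467787 counts in siCtrl. USP9X mRNA averaged 35.1 ± 19.8 CPM in siUSP9X and 341 ± 48.5 CPM in siCtrl (SD, n = 5 each). It was highest among siUSP9X libraries in replicate 2, at 68.7 CPM, against 20.7 to 36.5 CPM in the remaining ones. siUSP9X replicate 2 stood apart: 2.15% of its counts fell on ribosomal protein genes, whose share was 4.48 to 5.19% in the remaining siUSP9X libraries and 4.85 to 6.45% in siCtrl, and MT-RNR2 held 1.40%, where the remaining siUSP9X libraries had 0.450 to 0.573%. Results are therefore also given without that library. Most endothelial markers were barely detected, since 12 of 16 were under 1 CPM, among them PECAM1, CDH5, KDR, TEK and VWF. ERG and EMCN had 0 counts, and ESAM was the highest of the 16. The summed level of the 16 markers was 232.9 to 256.7 CPM in the siUSP9X libraries other than replicate 2 and 110.8 CPM in siUSP9X replicate 2. In siCtrl it was 239 to 304.2 CPM, so the sums overlapped with or without siUSP9X replicate 2. Single markers went apart from the sum. With all libraries 0 of the 16 were called. Without siUSP9X replicate 2, ENG, EGFL7 and SOX18 were called lower, with log2 fold changes of -0.39, -0.61 and -0.71. CDH5 and ESAM, at 0.66 and 0.00, were not called in that fit. Of 9 epithelial markers, 5 were under 1 CPM: EPCAM, CDH1 and KRT19, and KRT5 and KRT14 at 0. The summed level of the 9 was 2035 to 2759 CPM in siUSP9X (2543 or more without replicate 2) and 3320 to 4179 CPM in siCtrl. Nearly all of it came from KRT8 and KRT18, with means of 1579 and 945 CPM in siUSP9X and 2153 and 1578 CPM in siCtrl. KRT8 and KRT18 of this list were lower, with log2 fold changes of -0.45 ± 0.12 and -0.74 ± 0.10 (SE), and among 6 brain barrier markers ABCB1, a drug efflux pump, was higher (0.71 ± 0.18, SE). With each of the 10 libraries left out in turn, KRT18 was called every time, and KRT8 and ABCB1 each 3 times. The part of the marker genes in the results below was not tested.

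Without siUSP9X replicate 2, 25 of the 48 genes were lower and 1 was higher, where 11.5% of all genes tested were lower and 11.9% higher. All 15 genes of the full comparison were called again with the same sign, the median log2 fold change over the 48 genes was -0.25, and 38 were negative. The 11 genes called only then were all lower, with log2 fold changes from -0.46 to -0.20: ORC1, MCM2, MCM4, MCM6, MCM10, GINS2, RFC2, RFC4, PRIM2, CHAF1B and CCNE2. Leaving out any 1 of the other 9 libraries gave 6 to 11 lower and 0 higher genes. The lowest count, 6, came without siCtrl replicate 3 or 4, where GINS1, MCM3, CDC6, UHRF1, CDT1 and TYMS remained.

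**Figure D2:**
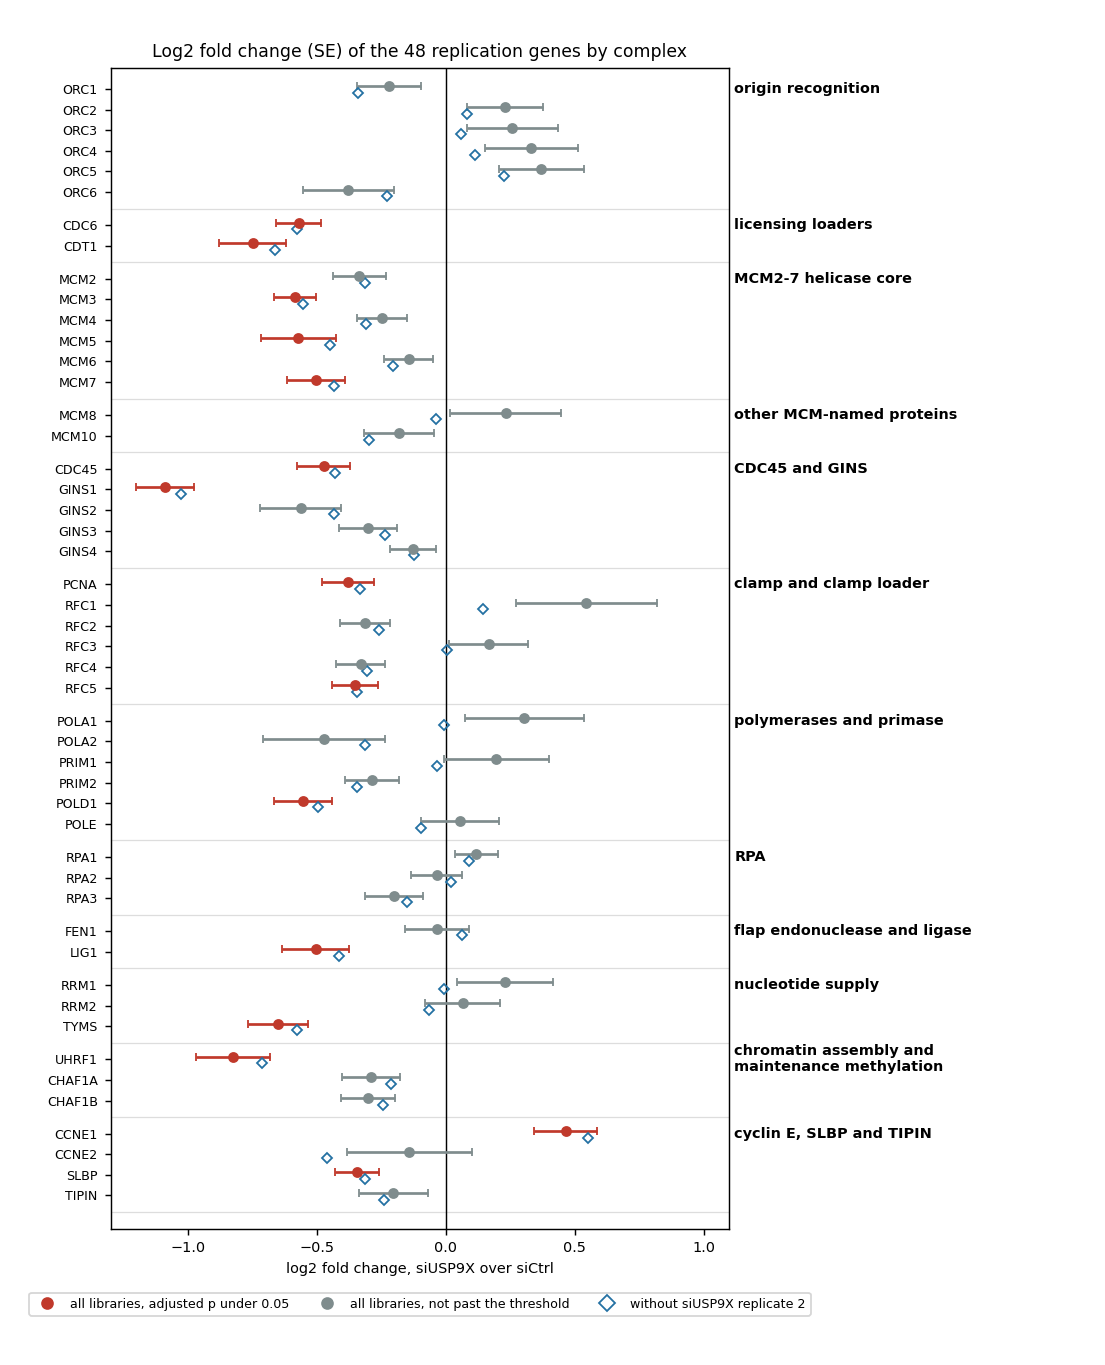
Log2 fold change, siUSP9X over siCtrl, of each of the 48 genes with its SE, grouped by complex, with red for the 15 genes past the threshold, grey for the rest and open diamonds for the value without siUSP9X replicate 2. The 2 loaders, the 6 MCM2 to MCM7 genes and the 5 CDC45 and GINS genes all lie left of 0, from -1.09 for GINS1 to -0.13 for GINS4.

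To show the sequences that E2F factors are known to read, RefSeq promoter windows (GRCh38.p14, from 250 bases before to 50 bases after each annotated start) were searched for the words TTTGGCGC, TTTCCCGC, TTTCGCGC and TTTGCCGC on both strands. Of the 48 genes, 42 have a window (MCM4, MCM5, GINS4, RPA2, RPA3 and CCNE2 do not in the table used), and 20 of these (47.6%) hold a word, against 6.81% of tested genes and 3.99% of all genes with a window. A word was found in 9 of 13 lower genes with a window (69.2%), in 11 of 28 that did not pass the threshold (39.3%) and not in CCNE1. These are matches of letters and not shown to be bound sites. Other forms of the E2F site were not searched, so a window without a word may still hold one. The full windows of GINS1 (chr20:25407423-25407722, plus strand), MCM3 (chr6:52284693-52284992, minus strand) and CDC6 (chr17:40287629-40287928, plus strand) are shown for the 3 genes with the smallest p, and that of CCNE1 (chr19:29811741-29812040, plus strand) for the gene that was higher, with the words in capitals.
GINS1: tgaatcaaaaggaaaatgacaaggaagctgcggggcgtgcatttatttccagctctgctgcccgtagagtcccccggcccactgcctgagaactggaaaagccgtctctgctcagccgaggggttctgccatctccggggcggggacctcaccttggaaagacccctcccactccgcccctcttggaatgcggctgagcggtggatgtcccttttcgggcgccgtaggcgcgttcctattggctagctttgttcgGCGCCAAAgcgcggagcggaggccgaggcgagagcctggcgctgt
MCM3: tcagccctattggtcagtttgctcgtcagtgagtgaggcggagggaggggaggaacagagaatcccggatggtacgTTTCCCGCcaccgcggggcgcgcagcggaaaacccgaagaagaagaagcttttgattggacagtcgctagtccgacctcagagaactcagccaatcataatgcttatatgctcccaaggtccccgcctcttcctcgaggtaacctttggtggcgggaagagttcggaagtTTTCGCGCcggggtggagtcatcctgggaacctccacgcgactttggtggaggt
CDC6: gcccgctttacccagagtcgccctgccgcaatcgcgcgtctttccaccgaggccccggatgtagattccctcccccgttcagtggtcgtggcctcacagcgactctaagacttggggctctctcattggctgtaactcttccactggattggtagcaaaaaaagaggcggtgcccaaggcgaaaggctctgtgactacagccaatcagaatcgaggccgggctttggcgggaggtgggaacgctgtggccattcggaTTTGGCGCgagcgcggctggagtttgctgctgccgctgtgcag
CCNE1: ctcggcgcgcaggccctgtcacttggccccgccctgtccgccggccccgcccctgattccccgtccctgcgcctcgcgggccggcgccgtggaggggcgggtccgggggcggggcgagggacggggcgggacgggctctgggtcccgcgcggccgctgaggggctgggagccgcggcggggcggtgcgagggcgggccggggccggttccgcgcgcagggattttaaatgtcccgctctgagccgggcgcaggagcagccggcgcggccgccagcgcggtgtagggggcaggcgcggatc
In MCM3 the 2 words start 174 and 4 bases before the annotated start, whereas those of GINS1 and CDC6 start 5 and 7 bases after it. The other lower genes with a word are shown with 10 bases on each side, for a view of how alike the surroundings are, and all are on GRCh38.p14. They are CDT1 (chr16:88803744-88803771, plus), MCM7 (chr7:100101389-100101416, minus), PCNA (chr20:5126664-5126691, minus), LIG1 (chr19:48170441-48170468, minus), TYMS (chr18:657604-657631, plus) and UHRF1 (chr19:4909477-4909504, plus).
CDT1: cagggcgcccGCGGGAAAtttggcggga
MCM7: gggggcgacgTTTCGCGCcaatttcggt
PCNA: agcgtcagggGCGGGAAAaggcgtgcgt
LIG1: cttcacccctTTTCCCGCcctcctccca
TYMS: cgggacggccGCGGGAAAaggcgcgcgg
UHRF1: ccgagttttcGCGGGAAAaaaatcagag
MCM7 holds another match 187 bases before the same start and UHRF1 one 160 bases before another annotated start. The lower genes CDC45, RFC5, POLD1 and SLBP hold none of the words searched in their windows. Some GCGGGAAA matches, as in PCNA, overlap the letters GGGCGG of a GC box. GC boxes were in 76.2% of the 42 windows and 78.2% of tested genes, CCAAT in 59.5% and 43.1%, and TTTGAA, the core of the cell cycle homology region of late cell cycle genes, in 2.38% (RRM1 alone) and 13.3%, each on both strands.

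**Figure D3:**
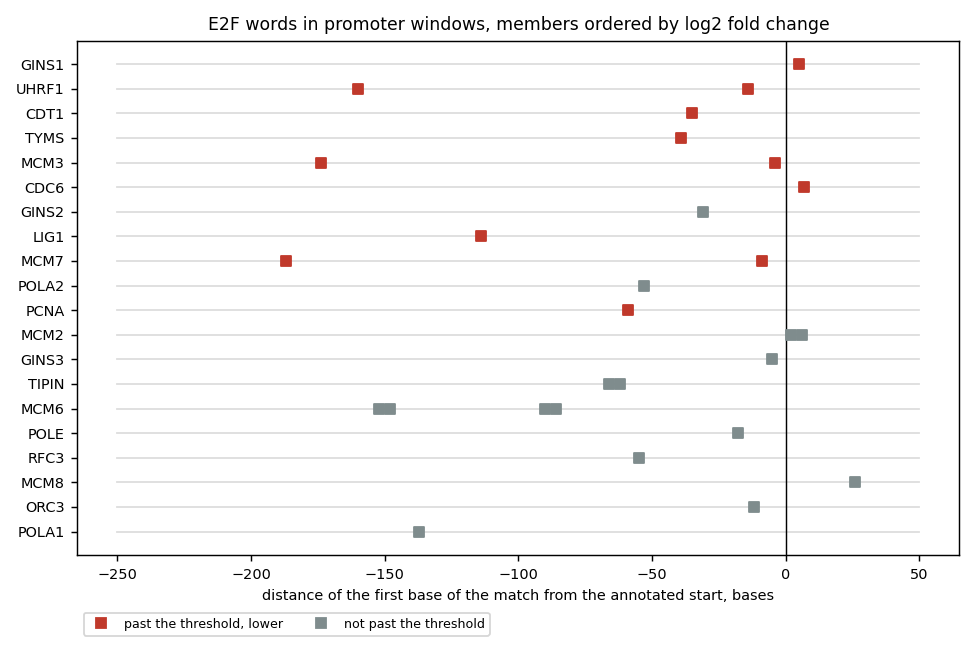
Distance in bases from the annotated start to each E2F word in the promoter windows of the 20 genes that hold one, ordered from the lowest log2 fold change (top), with all windows of a gene on 1 line. Red squares mark the 9 lower genes and grey squares the 11 that did not pass the threshold, and the matches run from 187 bases before to 26 bases after the start.

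Both helicase loaders were lower. CDC6, the ATPase that brings the ring to the origin (chr17:40287633-40304657, plus strand), had 56.8, 61.9, 63.5, 57.5 and 62.0 CPM in siUSP9X replicates 1 to 5, against 92.4, 89.0, 94.9, 87.5 and 84.1 CPM in siCtrl replicates 1 to 5. The groups were well apart, and replicate 2 sat inside the siUSP9X range. CDC6 was 1.48-fold lower, with a log2 fold change of -0.57 with an SE of 0.09 (edgeR adjusted p = 0.0035). CDT1, which delivers MCM2 to MCM7 to CDC6 (chr16:88803213-88809258, plus strand), had 90.2, 57.1, 75.1, 83.1 and 71.6 CPM in siUSP9X, against 110, 134, 128, 140 and 122 CPM in siCtrl. Its siUSP9X libraries were spread more widely than those of CDC6, with replicate 2 lowest, and none reached siCtrl. CDT1 was 1.68-fold lower (log2 fold change -0.75 ± 0.13, SE, edgeR adjusted p = 0.00749). Both genes kept their calls whichever 1 of the 10 libraries was left out.

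Origin recognition genes, which mark where rings are loaded, included 0 of 6 past the threshold in either direction, and 1 of the 6 had an unadjusted p under 0.05 (ORC5). ORC3 had 61.1, 97.4, 60.4, 46.2 and 55.3 CPM in siUSP9X, against 55.3, 52.8, 59.7, 49.5 and 50.6 CPM in siCtrl. The groups overlap, and the high siUSP9X value is that of replicate 2. Its log2 fold change was 0.26 ± 0.18 (SE), and those of ORC2, ORC4 and ORC5 were 0.23 ± 0.15, 0.33 ± 0.18 and 0.37 ± 0.17. ORC1, the subunit whose level cycles in human cells, averaged 35.1 ± 6.44 CPM in siUSP9X and 40.9 ± 2.06 CPM in siCtrl (SD, n = 5 each), with replicate 2 at 46.5 CPM and the other siUSP9X libraries at 30.5 to 33.9 CPM. Without replicate 2 its log2 fold change was -0.34 and it was called lower, the only one of the 6 genes to be called in that fit. ORC6 averaged 49.4 ± 12.5 CPM in siUSP9X and 64.2 ± 4.32 CPM in siCtrl, with every siUSP9X library below every siCtrl library, and did not pass (log2 fold change -0.38 ± 0.18, SE). Under other processing choices, ORC5 was called higher and ORC6 lower.

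All 6 genes of the MCM2 to MCM7 ring had negative log2 fold changes, and 3 passed the threshold. MCM3 (chr6:52264009-52284881, minus strand) had 188, 165, 179, 177 and 182 CPM in siUSP9X, against 261, 275, 267, 271 and 258 CPM in siCtrl. Both groups were tight and lay far apart. MCM3 was lower (log2 fold change -0.58 ± 0.08, SE, edgeR adjusted p = 0.00216) and kept its call in all 10 fits that left out 1 library. MCM7 (chr7:100092728-100101940, minus strand) had 279, 215, 271, 292 and 278 CPM in siUSP9X, against 320, 423, 383, 400 and 366 CPM in siCtrl. Replicate 2 was the lowest siUSP9X library and replicate 1 the lowest siCtrl library, with a gap left between the groups. MCM7 had a log2 fold change of -0.50 with an SE of 0.11 (edgeR adjusted p = 0.0233), called in 4 of those 10 fits, without siCtrl replicate 1 or siUSP9X replicate 1, 2 or 4. AP4M1 on the opposite strand shares 277 of its 3652 exon bases. MCM5 (chr22:35400063-35425430, plus strand) had 185, 109, 179, 188 and 184 CPM in siUSP9X, against 223, 259, 254, 272 and 248 CPM in siCtrl. Replicate 2 was far below the other 4 siUSP9X libraries, which were themselves all below siCtrl. MCM5 had a log2 fold change of -0.57 with an SE of 0.15 (edgeR adjusted p = 0.0394), or -0.45 without replicate 2, and was called in 2 of the 10 fits, without siUSP9X replicate 2 or 4.

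The other 3 ring genes did not pass with all libraries. MCM2 averaged 90.4 ± 5.03 CPM in siUSP9X and 114 ± 13.5 CPM in siCtrl (SD, n = 5 each), with no overlap between the groups and a log2 fold change of -0.33 ± 0.10 (SE). MCM4 had a log2 fold change of -0.25 ± 0.10 and MCM6 of -0.14 ± 0.10 (SE), and in both the groups overlapped through siUSP9X replicate 2, at 222 CPM for MCM4 and 181 CPM for MCM6. Without that library all 6 ring genes were lower, as were 11.5% of all genes tested. The ring holds 1 copy of each subunit, yet per kilobase of transcript the mRNA levels differed among subunits in both groups. MCM7 was highest at 90.3 CPM per kb in siUSP9X and 128 CPM per kb in siCtrl, and MCM2 lowest at 25.0 and 31.5 CPM per kb. MCM3, MCM4 and MCM5 stood at 55.5, 60.4 and 47.9 CPM per kb in siUSP9X and at 83.1, 71.7 and 71.1 CPM per kb in siCtrl. MCM6 stood at 41.5 CPM per kb in siUSP9X and 45.8 CPM per kb in siCtrl.

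Of the 2 other genes with an MCM name, neither passed, and neither had an unadjusted p under 0.05. MCM8, which works with MCM9 in recombination repair, had 77.6, 166, 86.6, 75.4 and 85.7 CPM in siUSP9X, against 101, 77.5, 89.0, 71.3 and 80.2 CPM in siCtrl. The groups overlap apart from siUSP9X replicate 2, and the log2 fold change was 0.23 ± 0.21 (SE) with that library and -0.04 without it. MCM10, a firing factor outside the ring, averaged 35.0 ± 6.26 CPM in siUSP9X and 39.7 ± 5.02 CPM in siCtrl (SD, n = 5 each), giving a log2 fold change of -0.18 ± 0.14 (SE), and was called lower without replicate 2.

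CDC45 and the GINS genes, which complete the active helicase, included GINS1, the lowest of the 48 genes by fold change. GINS1 (chr20:25407727-25452628, plus strand) had 39.2, 32.2, 45.1, 38.0 and 40.5 CPM in siUSP9X, against 91.1, 87.1, 83.4, 75.6 and 77.8 CPM in siCtrl. Even its highest siUSP9X library, replicate 3, lay far under its lowest siCtrl library, replicate 4. GINS1 was 2.13-fold lower (log2 fold change -1.09 ± 0.11, SE, edgeR adjusted p = 0.000403), -1.03 without replicate 2, and called in all 10 fits that left out 1 library. CDC45 (chr22:19479459-19520612, plus strand) had 42.8, 38.9, 51.2, 43.1 and 44.4 CPM in siUSP9X, against 55.9, 60.4, 64.6, 65.4 and 59.7 CPM in siCtrl. The groups did not overlap, with siUSP9X replicate 3 nearest to siCtrl. CDC45 had a log2 fold change of -0.47 with an SE of 0.10 (edgeR adjusted p = 0.0193) and was called in 6 of the 10 fits, losing the call without siCtrl replicate 3, 4 or 5 or siUSP9X replicate 5.

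The 4 GINS proteins form 1 complex with equal parts, but their mRNAs did not have equal fold changes. GINS2 averaged 44.4 ± 9.53 CPM in siUSP9X and 65.5 ± 6.003 CPM in siCtrl (SD, n = 5 each) without overlap, and just missed the threshold (log2 fold change -0.56 ± 0.16, SE, edgeR adjusted p = 0.054). It was called without siUSP9X replicate 2, which was its lowest library at 28.1 CPM. GINS3 and GINS4 had log2 fold changes of -0.30 ± 0.11 and -0.13 ± 0.09 (SE) with overlapping groups, and neither was called with or without that library. The difference between GINS1 and the other GINS genes was not tested. Per kilobase, GINS1 stood at 12.0 CPM in siUSP9X and 25.5 CPM in siCtrl, GINS2 at 16.6 and 24.5 CPM, GINS3 at 16.7 and 20.6 CPM and GINS4 at 8.57 and 9.35 CPM.

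Among the clamp and its loader, 2 of 6 genes were lower and 4 of 6 lay wholly below siCtrl. Over all tested genes these shares were 3.22% and 6.85%. PCNA, the ring that tethers polymerases (chr20:5114953-5126626, minus strand), had 266, 244, 302, 283 and 301 CPM in siUSP9X, against 356, 408, 375, 338 and 337 CPM in siCtrl. The groups were separate, with replicate 2 the lowest siUSP9X library. PCNA had a log2 fold change of -0.38 with an SE of 0.10 (edgeR adjusted p = 0.0415), and the call was kept in 1 of the 10 fits, that without siUSP9X replicate 2. Its annotated pseudogenes hold 0 to 2 counts in all libraries together, against 60231 for PCNA. RFC5 (chr12:118013588-118033130, plus strand) had 48.1, 47.3, 50.6, 44.5 and 49.9 CPM in siUSP9X, against 65.2, 62.0, 63.8, 57.9 and 57.9 CPM in siCtrl. Replicate 2 was within the range of the other siUSP9X libraries, and no library crossed over. RFC5 had a log2 fold change of -0.35 with an SE of 0.09 (edgeR adjusted p = 0.0368), also kept only without siUSP9X replicate 2. RFC2 and RFC4 had log2 fold changes of -0.31 ± 0.10 and -0.33 ± 0.09 (SE) without overlap, did not pass, and were called lower without replicate 2. RFC1, the large subunit, averaged 98.8 ± 54.4 CPM in siUSP9X and 67.7 ± 6.51 CPM in siCtrl (SD, n = 5 each), with replicate 2 at 195 CPM, and RFC3 had 0.17 ± 0.15 (SE). Their log2 fold changes without replicate 2 were 0.14 and 0.00.

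POLD1, the catalytic subunit of polymerase delta, was the only lower gene of 6 polymerase and primase genes. POLD1 (chr19:50384204-50418016, plus strand) had 72.9, 55.5, 66.6, 68.8 and 67.1 CPM in siUSP9X, against 79.2, 99.6, 100, 108 and 98.6 CPM in siCtrl. siCtrl replicate 1 came nearest to the siUSP9X libraries and still lay above all of them. Its log2 fold change was -0.55 with an SE of 0.11 (edgeR adjusted p = 0.0159), called in 8 of 10 fits and lost without siCtrl replicate 3 or 4. POLE, the catalytic subunit of polymerase epsilon on the leading strand, averaged 165 ± 37.9 CPM in siUSP9X and 159 ± 18.1 CPM in siCtrl (SD, n = 5 each), with a log2 fold change of 0.06 ± 0.15 (SE), or -0.10 without replicate 2. POLA1 and PRIM1, which together start each new strand, had log2 fold changes of 0.30 ± 0.23 and 0.20 ± 0.20 (SE) with replicate 2 highest, and -0.01 and -0.03 without it. PRIM2 had -0.29 ± 0.10 and was called lower without replicate 2. POLA2 had -0.47 ± 0.24 (SE) at 10.8 ± 2.81 CPM in siUSP9X and 14.9 ± 4.29 CPM in siCtrl, and its counts are uncertain because AP000944.2 on the same strand shares 2012 of its 3744 exon bases.

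None of the 3 RPA genes, which coat single-stranded DNA, passed in either direction, and 0 had an unadjusted p under 0.05. RPA1 had 350, 401, 360, 363 and 381 CPM in siUSP9X, against 333, 334, 340, 362 and 340 CPM in siCtrl. The groups overlap through siCtrl replicate 4, and the log2 fold change was 0.12 ± 0.08 (SE). RPA2 and RPA3 had log2 fold changes of -0.03 ± 0.10 and -0.20 ± 0.11 (SE).

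Of the pair that finishes Okazaki fragments, LIG1 was lower and FEN1 did not pass. LIG1, the ligase (chr19:48115445-48170603, minus strand), had 57.7, 39.3, 48.5, 61.7 and 57.6 CPM in siUSP9X, against 65.8, 78.7, 75.3, 79.6 and 76.1 CPM in siCtrl. siUSP9X replicate 4 and siCtrl replicate 1 came close to each other, and replicate 2 was lowest. LIG1 had a log2 fold change of -0.50 with an SE of 0.13 (edgeR adjusted p = 0.0395), called in 3 of 10 fits, without siCtrl replicate 1 or siUSP9X replicate 2 or 4. FEN1 averaged 148 ± 23.9 CPM in siUSP9X and 151 ± 10.3 CPM in siCtrl (SD, n = 5 each), giving a log2 fold change of -0.03 ± 0.12 (SE).

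Of 3 nucleotide supply genes, TYMS was lower and the ribonucleotide reductase genes RRM1 and RRM2 did not pass. TYMS, thymidylate synthase (chr18:657604-673578, plus strand), had 42.8, 33.9, 48.7, 44.99 and 43.3 CPM in siUSP9X, against 58.3, 65.8, 69.1, 72.3 and 69.7 CPM in siCtrl. No siUSP9X library reached siCtrl, and the gap was narrowest between siUSP9X replicate 3 and siCtrl replicate 1. TYMS was 1.57-fold lower (log2 fold change -0.65 ± 0.12, SE, edgeR adjusted p = 0.00834), called in all 10 fits that left out 1 library. ENOSF1 on the opposite strand shares 967 of its 1662 exon bases, and the sources used here do not say whether counting used strand, so the value of TYMS is uncertain. ENOSF1 itself averaged 36.0 ± 2.39 CPM in siUSP9X and 35.2 ± 3.10 CPM in siCtrl (SD, n = 5 each). RRM1 averaged 182 ± 63.0 CPM in siUSP9X and 155 ± 8.94 CPM in siCtrl, with replicate 2 at 294 CPM and a log2 fold change of -0.01 without it. RRM2 averaged 209 ± 42.7 CPM in siUSP9X and 200 ± 24.4 CPM in siCtrl, giving a log2 fold change of 0.07 ± 0.14 (SE).

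All 3 genes that restore chromatin behind the fork lay below siCtrl in every siUSP9X library, as did 6.85% of all tested genes. Of the 3, UHRF1 alone passed the threshold. UHRF1, which reads hemimethylated DNA and recruits DNMT1 (chr19:4903080-4962154, plus strand), had 80.0, 48.8, 77.3, 77.0 and 78.8 CPM in siUSP9X, against 123, 112, 143, 130 and 133 CPM in siCtrl. The siUSP9X libraries other than replicate 2 were almost level, and replicate 2 was lower still. UHRF1 was 1.77-fold lower (log2 fold change -0.83 ± 0.14, SE, edgeR adjusted p = 0.00727), -0.71 without replicate 2, and called in all 10 fits that left out 1 library. CHAF1A and CHAF1B, subunits of the histone chaperone CAF-1, had log2 fold changes of -0.29 ± 0.11 and -0.30 ± 0.10 (SE) and did not pass. Without replicate 2, CHAF1B was called lower.

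The last 4 genes are regulators, and they were split. CCNE1, whose product activates CDK2 at the G1 to S boundary (chr19:29811898-29824308, plus strand), had 30.9, 22.6, 32.5, 30.8 and 32.0 CPM in siUSP9X, against 22.4, 22.3, 23.5, 19.2 and 20.5 CPM in siCtrl. All siUSP9X libraries but replicate 2 were above siCtrl, and replicate 2 lay within it. CCNE1 was 1.38-fold higher (log2 fold change 0.46 ± 0.12, SE, edgeR adjusted p = 0.0403), and the call was kept in 1 of the 10 fits, that without replicate 2, at 0.55. With upper-quartile factors or library totals in place of TMM scaling CCNE1 did not pass. CCNE2, which encodes cyclin E2, averaged 10.7 ± 4.84 CPM in siUSP9X and 11.8 ± 1.45 CPM in siCtrl (SD, n = 5 each), with replicate 2 at 19.2 CPM, a log2 fold change of -0.14 ± 0.24 (SE) and -0.46 without replicate 2, where it was called lower. INTS8 on the opposite strand shares 1629 of the 3432 exon bases of CCNE2, so its level is uncertain.

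SLBP, which binds the stem-loop that ends replication-dependent histone mRNAs (chr4:1692800-1712555, minus strand), had 68.7, 64.9, 74.5, 71.6 and 73.2 CPM in siUSP9X, against 92.0, 89.8, 92.7, 87.2 and 86.6 CPM in siCtrl. Both groups were narrow and separate. Its log2 fold change was -0.34 with an SE of 0.08 (edgeR adjusted p = 0.0337), and the call was kept in 1 of the 10 fits, that without siUSP9X replicate 2. TIPIN, a fork protection factor, averaged 16.2 ± 2.34 CPM in siUSP9X and 18.6 ± 2.32 CPM in siCtrl (SD, n = 5 each), giving a log2 fold change of -0.20 ± 0.13 (SE).

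**Figure D4:**
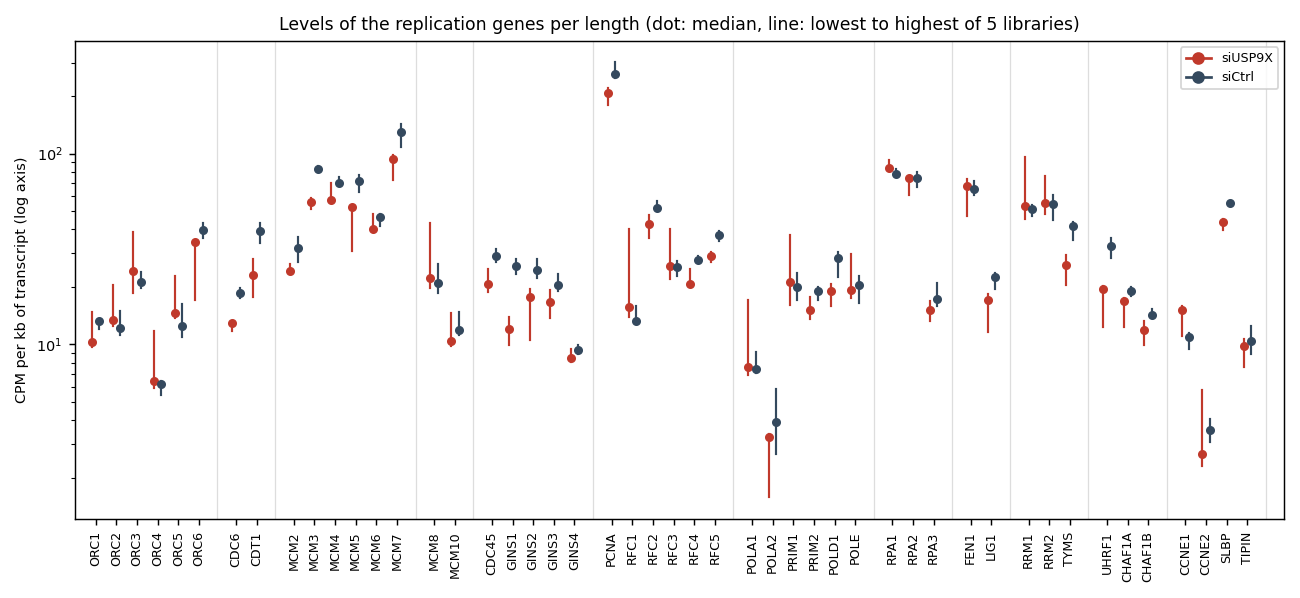
Level per kilobase of transcript (CPM per kb, log axis) of the 48 genes in siUSP9X (red, left of each pair) and siCtrl (blue), grouped by complex, as the median and the range of 5 libraries. PCNA is highest, with means of 205 CPM per kb in siUSP9X and 267 in siCtrl, and POLA2 and CCNE2 are lowest.

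The deviation of siUSP9X replicate 2 from the other siUSP9X libraries went with transcript length over all genes. Its log2 ratio to their median was -0.71 in the shortest 2633 of 10517 tested genes at 5 CPM or more and 0.74 in the longest 2629 (Spearman's rho 0.595, all points sharing that library). Over the 48 genes rho was 0.246, and replicate 2 was the highest siUSP9X library for 19 and the lowest for 24. RFC1, CCNE2, POLA1 and MCM8 deviated most upward, by 1.42, 1.19, 1.16 and 1.03, and POLA2 and ORC6 most downward, by -1.05 and -1.01. The median log2 fold change was -0.25 over the 25 shorter genes and -0.29 over the 23 longer ones, and -0.26 and -0.24 without replicate 2. The part of transcript length or RNA quality in the results was not tested.

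**Figure D5:**
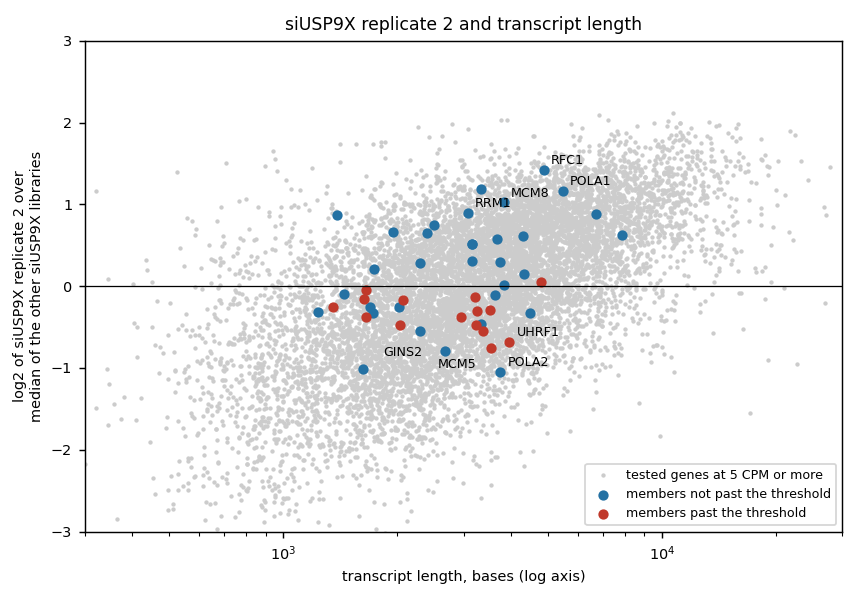
Log2 ratio of siUSP9X replicate 2 to the median of the other siUSP9X libraries against transcript length (bases, log axis) for tested genes at 5 CPM or more (grey, with 45 of 10517 points outside the axes) and the 48 replication genes past the threshold (red) or not (blue). The grey cloud climbs with length, and the red points all lie between -0.76 and 0.05.

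Of 51 further replication genes, taken from the same pathway, 50 were tested, 2 were lower (4.0%) and 1 higher. Over all tested genes 3.22% were lower and 4.09% higher. GMNN, the inhibitor of CDT1, averaged 41.1 ± 5.004 CPM in siUSP9X and 61.0 ± 5.54 CPM in siCtrl (SD, n = 5 each), giving a log2 fold change of -0.57 with an SE of 0.11 (edgeR adjusted p = 0.0141). DUT, which clears dUTP and makes the substrate of TYMS, averaged 74.8 ± 12.6 CPM in siUSP9X and 116 ± 11.3 CPM in siCtrl, giving a log2 fold change of -0.63 with an SE of 0.13 (edgeR adjusted p = 0.0182). The histone chaperone ASF1A was higher, at 23.7 ± 4.67 CPM in siUSP9X and 14.5 ± 1.89 CPM in siCtrl (log2 fold change 0.71 ± 0.15, SE, edgeR adjusted p = 0.0188). The median log2 fold change over the 50 was -0.01. Without siUSP9X replicate 2 there were 13 lower and 3 higher genes, where 11.5% of all genes tested were lower and 11.9% higher. Of 12 S phase checkpoint genes, CHEK2 was lower (25.6 ± 2.78 CPM in siUSP9X and 35.4 ± 4.36 CPM in siCtrl, log2 fold change -0.47 ± 0.12, SE), WEE1, a kinase that restrains CDK1, was higher (81.5 ± 8.10 CPM in siUSP9X and 57.0 ± 5.13 CPM in siCtrl, log2 fold change 0.52 ± 0.11, SE), and 10 did not pass. CHEK2 alone makes up 8.33% of the 12 checkpoint genes, beside the 3.22% lower over all tested genes. GMNN, DUT, ASF1A, WEE1 and CHEK2 kept their calls in 9, 8, 7, 7 and 2 fits out of 10 with 1 library removed.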

How the data were processed

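Counts per gene symbol in 10 RNA-seq libraries were deposited by the authors as whole numbers that are not normalized. Per the labels' protocols, RNA was taken with TRIzol and made into stranded mRNA libraries. Per the submitters' processing notes, hg38, RSEM and DESeq2 were used, with no role or order. The aligner, the annotation, the strand setting and whether the counts are rounded estimates are not given in the sources used here. In rounded estimates, reads shared by similar genes were split before deposit. Samples were grouped by their treatment label. Whether the 5 libraries of a group are separate cultures is not in the labels, and p-values then measure only the spread between libraries, which may be technical. Counts of any 2 replicates differed by more than sampling noise (chi-square over degrees of freedom of 5.25 or more).

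Genes were tested with edgeR 4.0.16 in R 4.3.3 (robust glmQLFit, two-sided glmQLFTest, TMM factors, filterByExpr with a minimum count of 10, group as the only term), with Benjamini-Hochberg adjustment over 13934 genes and a threshold of 0.05. The unit CPM scales counts to 1e+06 per library after TMM. Levels per kilobase divide CPM by the exon length of the GENCODE release 29 transcript with the longest coding sequence, and gene coordinates are from that release (GRCh38). Alternatives used other scalings and filters, DESeq2 1.42.0, limma 3.58.1 with voom, a replicate block, and each library left out. The edgeR script was checked on simulated counts. Every library's value is given for the genes past the threshold and, where a complex has none, for its gene with the highest mean CPM. Genes past the threshold are named for the lists of other replication, checkpoint and marker genes. KRT18, ABCB1, ENG, EGFL7 and SOX18 were named after their values were seen. The 48 genes and the other lists were chosen with earlier results of these data known.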

Additional observations from a re-analysis of the deposited data

Results flagged for a closer look

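Over the 48 genes and both groups, 96 groups of 5 libraries were examined for a library whose gap to its nearest neighbour exceeded 0.71 of the group's range (Dixon's 95% limit). Such a gap was found in 20 groups, where chance alone gives about 1 in 20, or 4.8. In 19 of them the library was siUSP9X replicate 2. It was high in 13 genes, given here with the range of the other siUSP9X libraries. Among origin and MCM genes these were ORC1 (46.5 CPM, against 30.5 to 33.9 CPM), ORC2 (87.8 CPM, against 54.0 to 60.4 CPM), ORC4 (78.7 CPM, against 39.5 to 48.8 CPM), MCM6 (181 CPM, against 145 to 153 CPM), MCM8 (166 CPM, against 75.4 to 86.6 CPM) and MCM10 (46.0 CPM, against 30.8 to 34.0 CPM). Among the rest they were RFC1 (195 CPM, against 67.7 to 85.3 CPM), RFC3 (97 CPM, against 53.0 to 64.7 CPM), POLA1 (93.2 CPM, against 38.0 to 47.6 CPM), POLE (232 CPM, against 137 to 157 CPM), RRM1 (294 CPM, against 140 to 164 CPM), RRM2 (282 CPM, against 178 to 207 CPM) and CCNE2 (19.2 CPM, against 7.66 to 9.72 CPM). It was low in 6 genes, MCM5 (109 CPM, against 179 to 188 CPM), MCM7 (215 CPM, against 271 to 292 CPM), POLA2 (5.92 CPM, against 10.8 to 12.7 CPM), RPA2 (74.6 CPM, against 89.2 to 93.0 CPM), UHRF1 (48.8 CPM, against 77.0 to 80.0 CPM) and CCNE1 (22.6 CPM, against 30.8 to 32.5 CPM). Of these 19 genes, MCM5, MCM7, UHRF1 and CCNE1 passed the threshold with all libraries, and each was also called without replicate 2.

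RPA1 was high in siCtrl replicate 4 (362 CPM, against 333 to 340 CPM in the other siCtrl libraries). Outside the 48 genes, WEE1 was high in siCtrl replicate 1 (65.8 CPM, against 52.8 to 56.4 CPM in the other siCtrl libraries).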

How the results depend on the processing

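Of the 48 genes, 14 lower and 1 higher were called with all libraries. The lower count was 9 with no filter, 28 with limma library weights, 2 with the replicate block, 27 with the replicate block without number 2 and 6 at a threshold of 0.01, and stayed within 1.5 times of 14 under the remaining alternatives (10 with library totals, 20 with DESeq2, 16 with limma-voom). The higher count was 0 with upper-quartile factors, library totals, no filter, the replicate block and the threshold of 0.01. It was 2 (CCNE1 and ORC5) with library weights and with the block without number 2. Leaving out 1 library gave 6 to 25 lower and 0 to 1 higher genes of the 48, 0 to 13 lower and 0 to 3 higher other replication genes, 0 to 1 lower and 0 to 2 higher checkpoint genes, and 189 to 1620 lower and 170 to 1674 higher genes over all. The highest counts came without siUSP9X replicate 2, for lower checkpoint genes also without siUSP9X replicate 3. Other replication genes gave 4 lower with library totals, 9 lower and 2 higher with DESeq2, 19 and 6 with library weights, 18 and 5 with the block without number 2, and 0 and 0 with the block and at 0.01. Checkpoint genes gave 0 lower and 0 higher with no filter, with the block and at 0.01, 2 higher with the filter of 5 CPM, DESeq2 and limma-voom, 2 lower and 3 higher with library weights, and 3 higher with the block without number 2. Over all genes, DESeq2 gave 988 lower and 1134 higher, library weights 2444 and 2473, the block 57 and 34, the block without number 2 1855 and 1582, and the threshold of 0.01 136 and 102. Deviations of same-numbered libraries from their group means had correlations of -0.367, -0.419, -0.0292, 0.228 and -0.0384. The siUSP9X mean includes replicate 2, which stood apart, so these values cannot settle whether the libraries are paired. GINS1 and UHRF1 kept their calls under all 11 alternatives beside those that left out 1 library, and CDC6, CDT1, MCM3 and TYMS lost theirs with the block alone. No gene of the 48 changed sign under the 3 other scalings. Signs reversed in genes that were not called in the main fit of all libraries. Of these, POLE was called lower in an alternative where its sign was reversed. In the block without number 2 the log2 fold changes were -0.0796 for MCM8, -0.0155 for RFC3, -0.0591 for POLA1, -0.0335 for PRIM1, -0.18 for POLE, 0.03465 for RPA2, 0.0747 for FEN1, -0.0503 for RRM1 and -0.0371 for RRM2. With library weights they were -0.14 for POLE, 0.0321 for RPA2 and 0.0637 for FEN1. Over fits that left out 1 library they ran from -0.0394 to 0.31 for MCM8, -0.00623 to 0.40 for POLA1, -0.03365 to 0.30 for PRIM1, -0.10 to 0.12 for POLE, -0.0646 to 0.0225 for RPA2, -0.0856 to 0.0624 for FEN1, -0.00724 to 0.31 for RRM1 and -0.0638 to 0.12 for RRM2. The cause was not tested.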

Other observations

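In an earlier analysis of the same fold changes, the 7-base words ATCACAA (with its shifted form AATCACA) and CAACTCT (with its shifted form AACTCTA) were found more often in the 3′ UTRs of genes lower in siUSP9X cells, so their occurrence here is no independent evidence. Of tested genes with an annotated 3′ UTR (GENCODE release 29, 1 transcript per gene), 47.7% of the lower, 25.1% of the higher and 26.2% of those not past the threshold held at least 1 word. Among the 48 replication genes 12 (25.0%) held one: 5 of the 14 lower genes (CDC6, CDT1, GINS1, MCM3 and UHRF1), 7 of the 33 not past the threshold (21.2%) and not CCNE1. GINS1, the lowest of the 48 by fold change, holds the most sites of these words among lower genes, 3, of the words AATCACA and ATCACAA. They are shown with 10 bases on each side and the word in capitals (GRCh38, plus strand, chr20:25446356-25446382, chr20:25446541-25446567 and chr20:25446930-25446956).
GINS1 site 1: ctgtatctgtAATCACAgcattcctac
GINS1 site 2: cacattttcaAATCACAtgcaagtgaa
GINS1 site 3: ccatcccaagATCACAAttttttttcc
TYMS, which also kept its call whichever library was left out, holds none. GINS4 holds each of the 4 different words at least 1 time and had a log2 fold change of -0.13. The 3′ UTRs searched were 2564 bases long in GINS1, 2959 in GINS4 and 581 in TYMS. Neither the counts nor the shares of words were adjusted for this length. The part of these words in the results was not tested.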
